A study of Mus musculus with 6 samples.

Results

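The glutamate receptor genes describe how brain tissue is equipped to receive its main excitatory transmitter. The set holds 31 listed mouse genes out of 56748 in the table: 4 AMPA receptor subunits, 8 auxiliary subunits of AMPA receptors, 6 NMDA receptor subunits, 5 kainate receptor subunits, 1 delta receptor subunit and 7 metabotropic receptors. They were chosen by name, and all 31 matched a row of the table. Of these, 30 were tested, being those whose normalized counts averaged 10 or more. The exception was Grm6, a metabotropic receptor best known from retinal bipolar cells, with 0, 0 and 4 reads at day 28 and none in the day 3 libraries.

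Brain tissue came from mice 28 or 3 days after implantation of MCF10DCIS CD63-NanoLuC cells, a human line that models ductal carcinoma in situ and carries the vesicle protein CD63 fused to a luciferase. Each time had 3 libraries of polyadenylated RNA, named here day 28 and day 3 replicates 1 to 3, and every mouse in the series carried the implant, so time after implantation is the one labelled difference. The labels used here give no strain, age, sex or brain region, and leave unsaid whether each library was a different mouse. The p-values therefore weigh the differences only against the scatter of these libraries, part of which may be technical. In bulk tissue, fewer cells of a type and less RNA per cell cannot be told apart.

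Glutamate opens ion channels of 3 main families. AMPA receptors carry most fast excitation, NMDA receptors admit calcium when glutamate and depolarization coincide and are needed for much of synaptic plasticity, and kainate receptors tune release and slower currents. Auxiliary subunits of the TARP (Cacng) and cornichon (Cnih) families bind AMPA receptors and set their traffic and gating. Metabotropic receptors couple to G proteins. Subunits differ between regions: Grin2c, Grm4 and Gria4 are abundant in the cerebellum, and Grin2b is abundant in the forebrain.

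Libraries held from 11958137 to 16059196 reads, of which the 31 genes took 0.482% to 0.515% at day 28 and 0.405% to 0.449% at day 3. The 5 neuronal markers Rbfox3, Snap25, Syt1, Tubb3 and Map2 were abundant in every library, with summed normalized counts of 82876 to 85140.0 at day 28 and 75061 to 82037 at day 3. Day 3 replicates 1 and 2 stood apart in cerebellar transcripts. The 9 cerebellar granule cell markers summed to 3159, 3536 and 5278 normalized counts at day 28, and to 22919.6, 20785 and 3191 at day 3. Gabra6, a receptor subunit of granule cells, had 0, 0 and 211 reads at day 28, and 2295, 2117 and 0 reads at day 3. Results are therefore also given without those 2 libraries, which leaves 1 library at day 3, assumed to vary like the others. Leaving out day 3 replicate 3 instead leaves only those 2 at day 3, so cerebellar content then differs more between the groups. Of the other fixed marker lists, all 9 striatal markers had a higher mean at day 28, with sums of 27134 to 33490.0 at day 28 and 15412 to 22109 at day 3, and all 4 oligodendrocyte markers had a lower mean, with sums of 67782 to 84538 at day 28 and 99899 to 119765 at day 3. Of the 4 hindbrain markers, 3 had a lower mean at day 28 and 1 a higher mean. Their normalized counts summed to 65.9, 84.8 and 101 in the day 28 libraries. Day 3 replicates 1 to 3 reached 1036, 559 and 151, with 62.1 of the last from Slc6a5. Day 3 replicate 3 was thus above every day 28 library in this sum. Leaving out day 3 replicates 1 and 2 therefore does not match the groups for hindbrain transcripts. Alb, which encodes albumin and is a liver gene, had 65795 reads in day 3 replicate 2 and 23 to 1276 elsewhere.

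None of the 30 receptor genes passed the test between day 28 and day 3. The count was 0 with limma at an adjusted p of 0.05, where 0.192% of all 16162 genes tested passed, and 0 with voom, where 0 of all genes passed. Of all genes tested, 0.0681% passed as higher and 0.124% as lower. Without the intensity trend and with the cerebellar covariate it was also 0 (0.0186% and 0.0124% of all genes). At an unadjusted p under 0.05 there were 11 receptor genes, against 13.4% of all genes. The groups did not overlap for 11 of 30 (36.7%), all of them higher at day 28, beside 18.9% of all genes in either direction and 9.71% with day 28 higher. The log2 difference was positive for 22 and negative for 8, with a median of 0.22, beside a median of -0.01 and 48.6% positive over all genes. The smallest adjusted p values were 0.0548 for Grik3, 0.0769 for Grin2b and 0.0791 for Cacng5. The count was 1 with every gene that had any read, 1 with scaling by total reads, 2 with a robust prior and 2 with library weights (0.232%, 0.198%, 0.458% and 0.427% of all genes). Without day 3 replicate 3, 9 of the 30 passed with limma, where 3.85% of all genes passed (2.01% higher and 1.84% lower). That setting leaves only the 2 libraries rich in cerebellar transcripts at day 3. The 9 were Grin2b, Grik3, Grm3, Grm5, Cacng3 and Cacng5, higher at day 28, and Gria4, Grin2c and Grm4, lower at day 28. Without 1 of the other libraries the count was 0 each time. Beside it, 0.00619% of all genes passed without day 28 replicate 1 and 0.192% without day 3 replicate 1. The share was 0.0124% without day 28 replicate 2, day 28 replicate 3 or day 3 replicate 2. The number of receptor genes with groups apart was 12, 13 and 16 without day 28 replicates 1, 2 and 3 (25.8%, 29% and 27% of all genes), and 12, 12 and 23 without day 3 replicates 1, 2 and 3 (36.9%, 25.3% and 33.4%). It was 18 without both day 3 replicates 1 and 2 (60.2%).

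**Figure D1:**
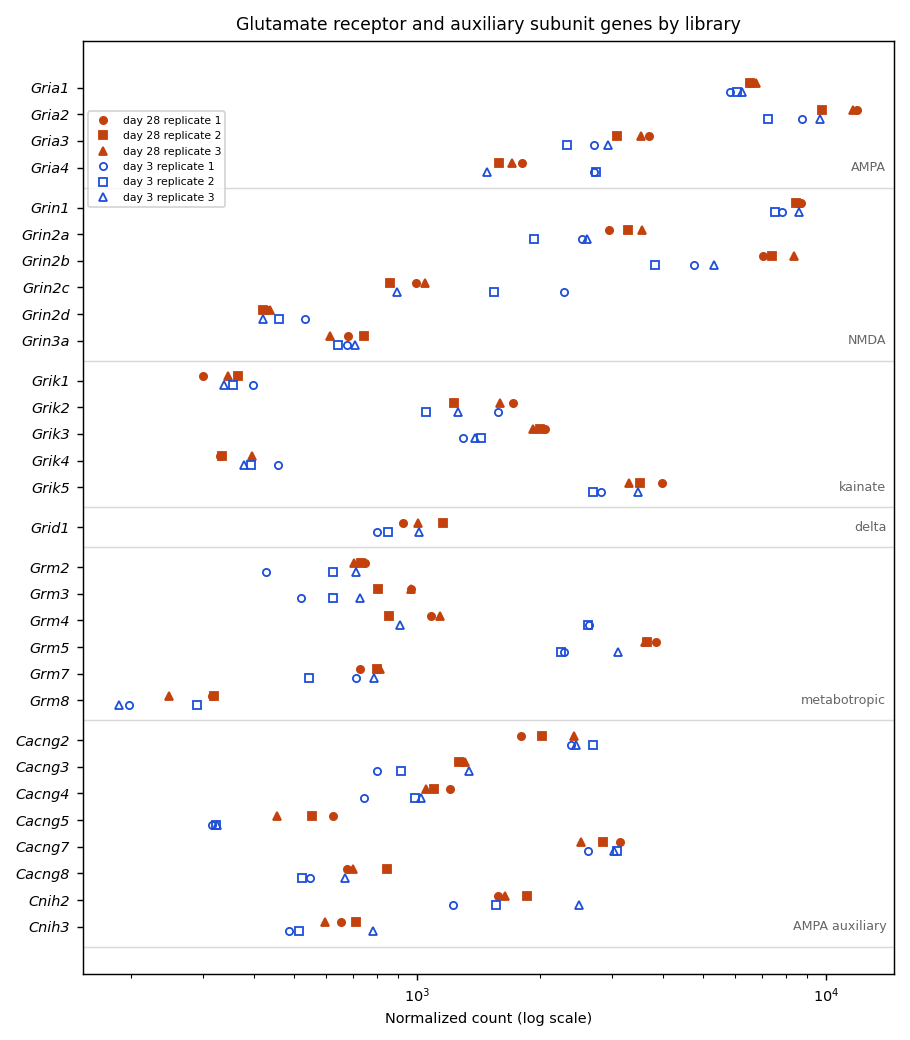
Normalized counts (log axis) of the 30 tested receptor genes in each library, with day 28 as filled symbols above day 3 as open symbols and rows grouped by receptor class. Grik3, Cacng5 and Grin2b show all 3 day 28 libraries above all 3 day 3 libraries, while Grm4, Grin2c and Gria4 are highest in day 3 replicates 1 and 2.

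**Figure D2:**
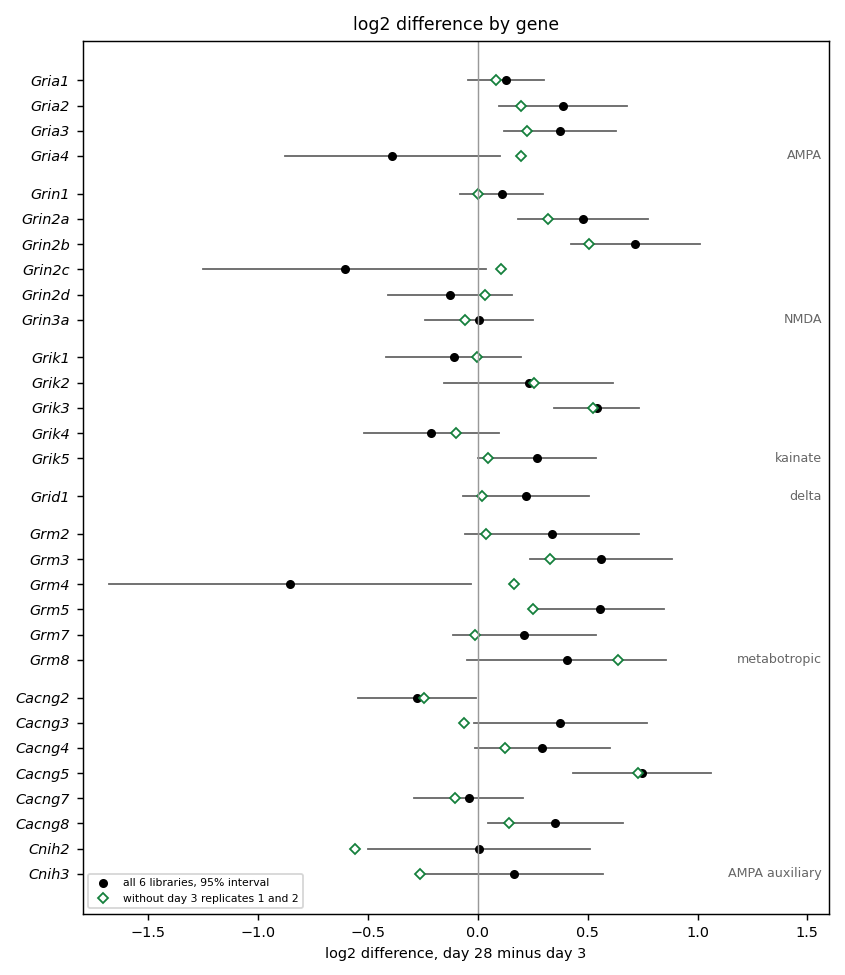
The log2 difference between day 28 and day 3 for each receptor gene with all 6 libraries (dots, limma 95% intervals) and without day 3 replicates 1 and 2 (open diamonds). The diamonds of Grik3 and Cacng5 lie close to their dots, and those of Grm4, Grin2c and Gria4 lie on the other side of 0.

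The 3 receptor genes with the most negative differences were high in the 2 libraries rich in cerebellar transcripts and alike in the other 4. Grm4, a presynaptic metabotropic receptor that lowers cAMP, had 1085, 855 and 1140.2 normalized counts at day 28, against 2629, 2624 and 910.3 at day 3. Day 3 replicates 1 and 2 were far above the other 4 libraries, and day 3 replicate 3 lay inside the day 28 range. Its log2 difference was -0.86 (SE 0.36, limma adjusted p = 0.355). Grin2c, an NMDA subunit with low sensitivity to magnesium block, had 993, 861 and 1048 at day 28, and 2296, 1542 and 896 at day 3 (log2 -0.61, SE 0.28, adjusted p = 0.40). Gria4, an AMPA subunit with fast kinetics, had 1809.9, 1588 and 1709 at day 28, and 2711, 2747 and 1484 at day 3 (log2 -0.39, SE 0.22, adjusted p = 0.473). The same 2 libraries were high for all 3 genes. Without them the log2 differences were 0.16 for Grm4, 0.11 for Grin2c and 0.20 for Gria4. Without day 3 replicate 3, they were -1.36, -0.96 and -0.68, and each passed (adjusted p = 0.00608, 0.0264 and 0.0121). The part of cerebellar tissue in these differences was not tested beyond these values.

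**Figure D3:**
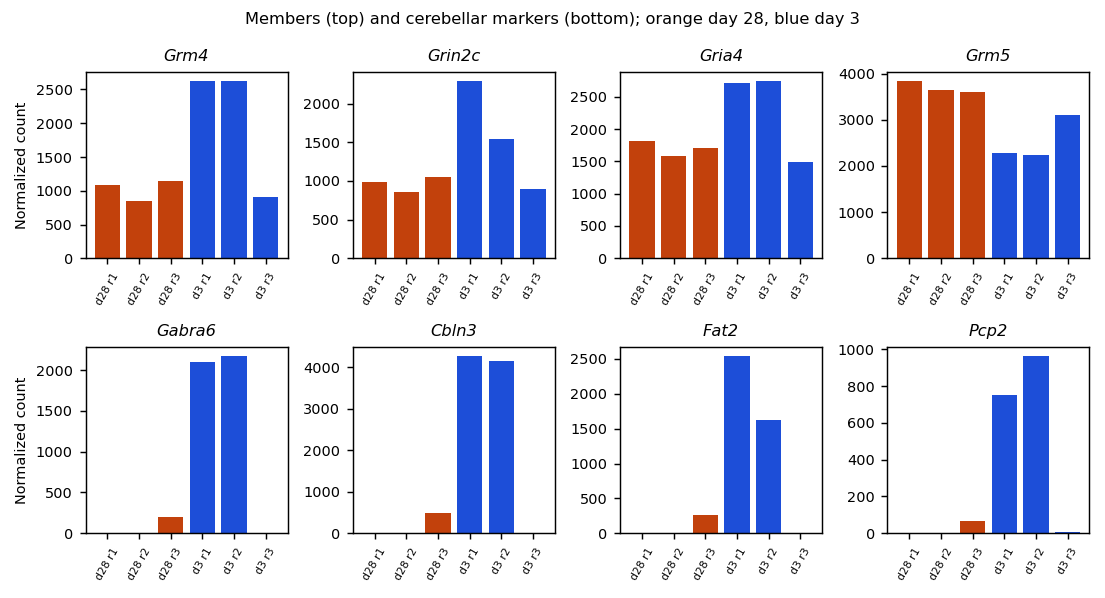
Normalized counts by library of Grm4, Grin2c, Gria4 and Grm5 (top) and of the cerebellar markers Gabra6, Cbln3, Fat2 and Pcp2 (bottom); bars are single libraries, day 28 in orange and day 3 in blue. The tall bars of Grm4, Grin2c and Gria4 fall in the libraries with the tall cerebellar bars, day 3 replicates 1 and 2, where Grm5 is lowest.

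Among AMPA receptor subunits, Gria1, Gria2 and Gria3 were higher in each day 28 library than in any at day 3, and none passed. Gria2, whose edited form keeps the channel largely impermeable to calcium, had 11951, 9809 and 11656 normalized counts at day 28, against 8747, 7223 and 9691 at day 3. The closest libraries, day 28 replicate 2 and day 3 replicate 3, were 9809 and 9691. The log2 difference was 0.39 (SE 0.13, adjusted p = 0.241). Gria3 had 3696, 3083 and 3533 at day 28, and 2713, 2326 and 2938 at day 3 (log2 0.37, SE 0.11, adjusted p = 0.207). Gria1, the subunit most studied for activity-dependent insertion at synapses, had 6492, 6522 and 6764 at day 28, and 5823, 6048 and 6235 at day 3 (log2 0.13, SE 0.08, adjusted p = 0.513), the smallest difference of the 3. Without day 3 replicates 1 and 2, the differences were 0.20 for Gria2 and 0.22 for Gria3. Levels per kilobase of merged exon put Gria1 first in the class (1091 ± 24.7 at day 28 and 999 ± 34.1 at day 3), then Gria2 (716 ± 74.6 at day 28 and 550.2 ± 80.1 at day 3) (SD, n = 3 each). Gria3 and Gria4 followed and changed places between the groups: Gria3 had 349 ± 32.2 at day 28 and 269.7 ± 31.4 at day 3, and Gria4 had 270.01 ± 17.6 at day 28 and 367 ± 114 at day 3, where the means of both lay within the spread of Gria4. Gria2 made up 30.7%, 27.7% and 30.0% of the 4 AMPA subunit levels per kilobase at day 28, and 25.2%, 21.7% and 28.5% at day 3. These shares overlapped.

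Of the 8 auxiliary subunits, Cacng4, Cacng5 and Cacng8 were higher in each day 28 library than in any at day 3. Cacng5, a TARP that modulates AMPA receptor gating, had 624, 554 and 455 normalized counts at day 28, against 316, 323 and 325 at day 3. The 3 day 3 libraries lay close together. The part of tissue make-up in the Cacng5 difference was not tested. Cacng5 averaged 544 ± 84.9 at day 28 and 321 ± 4.68 at day 3 (SD, n = 3 each; log2 0.75, SE 0.14, adjusted p = 0.0791), and its difference was 0.73 without day 3 replicates 1 and 2. Cacng8, a TARP of hippocampal AMPA receptors, had 675, 844 and 699 at day 28, and 548, 523 and 666 at day 3 (log2 0.35, SE 0.14, adjusted p = 0.303). Cacng4 had 1203, 1099 and 1052 at day 28, and 744, 990.1 and 1026 at day 3 (log2 0.29, SE 0.14, adjusted p = 0.394). Without day 3 replicates 1 and 2 the difference of Cacng8 was 0.14 and that of Cacng4 was 0.12. Cacng7, the member of this class with the most reads, had 3139, 2857 and 2515 at day 28, and 2621, 3088 and 3035 at day 3, with overlapping groups (log2 -0.04, 95% interval -0.29 to 0.21). Cnih2, a cornichon that slows AMPA receptor deactivation, was uneven at day 3, with 1583, 1861 and 1644 at day 28, and 1227, 1561 and 2496 at day 3. Its difference was 0.01 with all libraries and -0.56 without day 3 replicates 1 and 2. The related Cnih3 and the TARP Cacng3 showed the same turn, with 0.16 and 0.37 with all libraries and -0.26 and -0.06 without those 2. Cacng2, or stargazin, the founding TARP, had a difference of -0.28 (SE 0.12, adjusted p = 0.357) that was -0.25 without them.

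**Figure D4:**
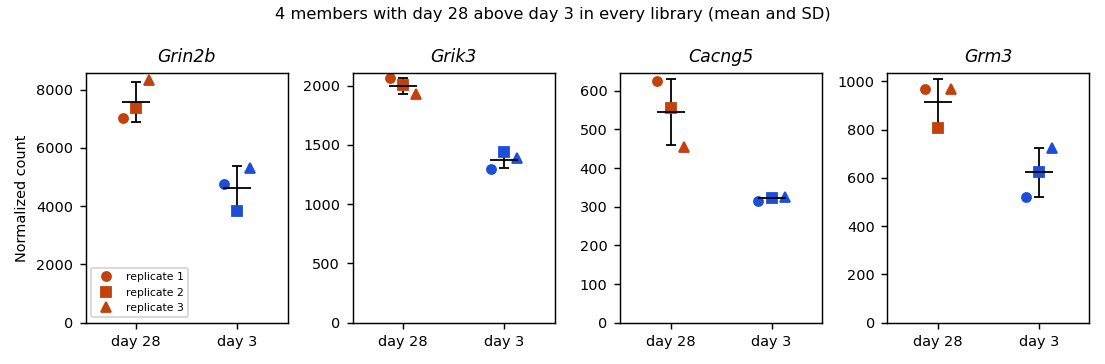
Normalized counts of Grin2b, Grik3, Cacng5 and Grm3 in each library (symbols by replicate) with group mean and SD, day 28 left of day 3. In all 4 the lowest day 28 library lies above the highest day 3 library, and the gap is narrowest for Grm3 (805 against 725).

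Among NMDA receptor subunits, Grin2b and Grin2a were higher at day 28 in each library, and the obligatory subunit Grin1 differed little. Grin2b, the subunit that gives NMDA receptors slow decay, had 7015, 7369 and 8339 normalized counts at day 28, against 4767, 3829 and 5316 at day 3. The groups were well apart. Grin2b averaged 7574 ± 685 at day 28 and 4637 ± 752 at day 3 (SD, n = 3 each; log2 0.72, SE 0.13, adjusted p = 0.0769), and its difference was 0.51 without day 3 replicates 1 and 2. Grin2b passed with limma under a robust prior (adjusted p = 0.0487) and library weights (0.0408). It also passed without day 3 replicate 3 (0.0143), which leaves only libraries rich in cerebellar transcripts at day 3. In the other 16 of 19 alternatives it did not pass. Grin2a, which replaces much of Grin2b at maturing synapses, had 2957, 3283 and 3554 at day 28, and 2529.8, 1929 and 2607 at day 3 (log2 0.48, SE 0.13, adjusted p = 0.166), and 0.32 without those 2 libraries. Grin1 had 8701, 8449.5 and 8605 at day 28, and 7825, 7527 and 8584 at day 3 (log2 0.11, 95% interval -0.08 to 0.30). Grin2d, with 421 to 438 counts at day 28 and 419.9 to 534 at day 3, and the glycine-binding Grin3a, with 614 to 741 at day 28 and 643 to 705 at day 3, had overlapping groups.

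Merged exons of the 6 NMDA genes ran from 5.04 kb for Grin2c to 24.8 kb for Grin2b. A fixed list of 5 long transcripts, with 23.5 to 41.2 kb of merged exon, was kept as a sign of RNA integrity. It summed to 40004 to 44943 normalized counts at day 28 and to 48831, 33169 and 33759.8 at day 3. The part of RNA integrity in the differences of the receptor genes was not tested.

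The ratio of Grin2b to Grin2a, which does not depend on the scaling of libraries, was 1.71, 1.62 and 1.69 per kilobase at day 28, and 1.36, 1.43 and 1.47 at day 3. The groups did not overlap, and the difference of 0.24 on the log2 scale gave an exact two-sided permutation p of 0.1, the smallest that 3 against 3 libraries can give (adjusted p = 0.2 over 10 such ratios and shares, which were chosen with values in view). Without day 3 replicates 1 and 2 it was 0.19. Grin2c took 27.8%, 23.9% and 25.8% of the summed Grin2a, Grin2b, Grin2c and Grin2d levels per kilobase at day 28, and 52.5%, 48.1% and 29.6% at day 3. Per kilobase, Grin2c thus was the largest Grin2 share in the 2 libraries rich in cerebellar transcripts. Grin2b was the largest in the other 4, with 39.8% to 41.6% at day 28 and 35.7% in day 3 replicate 3. This order depends on the division by exon length, 24.8 kb for Grin2b and 5.04 kb for Grin2c. In undivided normalized counts Grin2b was above Grin2c in every library, with 4767 and 3829 against 2296 and 1542 in day 3 replicates 1 and 2.

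**Figure D5:**
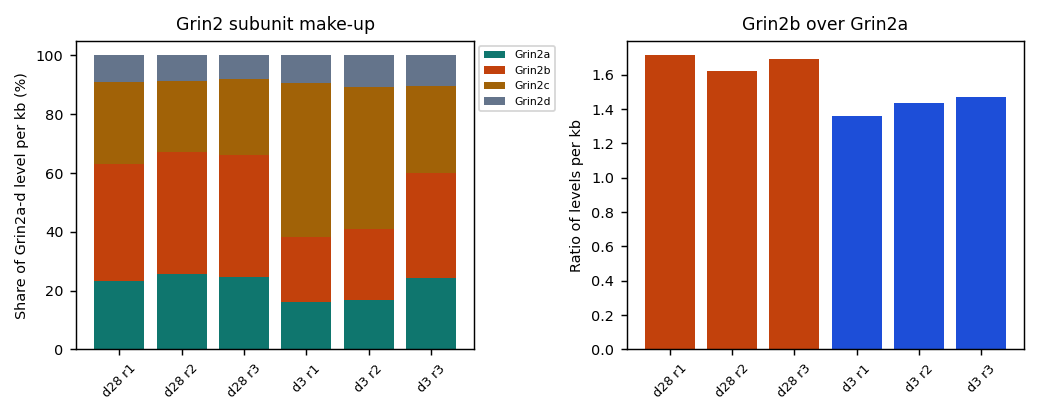
Left, the share of each Grin2 subunit in their summed level per kilobase of exon, by library; right, the ratio of Grin2b to Grin2a levels per kilobase, by library, with day 28 in orange and day 3 in blue. Grin2c fills most of the bar in day 3 replicate 1, and the ratio is at least 1.62 at day 28 and at most 1.47 at day 3.

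Among kainate receptor subunits, Grik3 had the smallest adjusted p of all 30 genes. Grik3, a subunit with low glutamate affinity, had 2062, 2003 and 1926 normalized counts at day 28, against 1295, 1436 and 1389.8 at day 3. Both groups were tight and far apart. Grik3 averaged 1997 ± 68.4 at day 28 and 1374 ± 72.0 at day 3 (SD, n = 3 each; log2 0.54, SE 0.09, adjusted p = 0.0548). Its difference was 0.52 without day 3 replicates 1 and 2 and 0.51 with cerebellar marker level as a covariate, though neither passed. Grik3 did pass with limma under library weights (adjusted p = 0.0381), a robust prior (0.0422) and scaling by total reads (0.0421). Of all genes, 0.427%, 0.458% and 0.198% passed there. It also passed with every gene that had any read (0.0494), where 0.232% of all genes passed. Without day 3 replicate 3, which leaves only libraries rich in cerebellar transcripts at day 3, it passed too (0.0243). Over all alternatives its adjusted p ran from 0.0243 to 0.342. Grik5, a high-affinity subunit that needs a partner to form channels and the most counted of the class, had 3984, 3505 and 3311 at day 28, and 2823, 2700.0 and 3477 at day 3, with overlapping groups (log2 0.27, SE 0.12, adjusted p = 0.375). Its difference was 0.05 without day 3 replicates 1 and 2. Grik2 had 1236 to 1718 counts at day 28 and 1054 to 1580.0 at day 3. Grik1, with 299 to 366 at day 28 and 337 to 398 at day 3, and Grik4, with 329 to 395 at day 28 and 377 to 457 at day 3, had negative differences of -0.11 and -0.21, and all 3 genes overlapped between the groups.

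The delta receptor gene Grid1, whose protein binds cerebellin proteins at synapses, had 926, 1158 and 1006 normalized counts at day 28, and 797, 850.3 and 1011 at day 3. The groups overlapped (log2 0.22, SE 0.13, adjusted p = 0.50), and the difference was 0.02 without day 3 replicates 1 and 2.

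Among metabotropic receptors, Grm3 and Grm5 were higher in each day 28 library. Grm5, a receptor that raises intracellular calcium and is abundant in striatum, cortex and hippocampus, had 3844, 3655 and 3607 normalized counts at day 28, against 2285, 2248 and 3106 at day 3. Day 3 replicate 3 lay between the other day 3 libraries and day 28. The difference was 0.56 (SE 0.13, adjusted p = 0.126), and 0.25 without day 3 replicates 1 and 2. Striatal markers also stood between, with a sum of 22109 in day 3 replicate 3, and their part in the difference was not tested. Grm3, a receptor of glia and neurons that lowers cAMP, had 970.3, 805 and 969 at day 28, and 521, 625 and 725 at day 3 (log2 0.56, SE 0.14, adjusted p = 0.153), and 0.33 without those libraries. Grm2, its close relative, had 701 to 748 at day 28 and 429 to 708 at day 3. Grm7, a presynaptic receptor, had 728 to 811 at day 28 and 544 to 785 at day 3. Grm8, a presynaptic receptor with the lowest level per kilobase of the 30, had 248 to 319 at day 28 and 187 to 289.9 at day 3. The groups of Grm2, Grm7 and Grm8 overlapped, with differences of 0.34, 0.21 and 0.40.

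The promoters of 4 receptor genes are shown because 2 of them (Grik3 and Grm3) were higher in each day 28 library and 2 (Grin2c and Gria4) varied with the cerebellar libraries. Each is the 250 bases before the RefSeq start on build GRCm38.p6, 5′ to 3′ along the gene's strand, with capitals at GC boxes (GGGCGG, or CCGCCC for the other strand). The windows are Grik3 chr4:125490446-125490695 (plus strand), Grm3 chr5:9725353-9725602 (minus), Grin2c chr11:115267244-115267493 (minus) and Gria4 chr9:4796235-4796484 (minus).
Grik3: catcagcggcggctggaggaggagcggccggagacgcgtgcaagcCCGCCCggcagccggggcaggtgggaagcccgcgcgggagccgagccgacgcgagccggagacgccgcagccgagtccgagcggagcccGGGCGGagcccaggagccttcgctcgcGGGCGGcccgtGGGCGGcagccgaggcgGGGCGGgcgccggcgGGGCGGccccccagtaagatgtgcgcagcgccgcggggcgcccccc
Grm3: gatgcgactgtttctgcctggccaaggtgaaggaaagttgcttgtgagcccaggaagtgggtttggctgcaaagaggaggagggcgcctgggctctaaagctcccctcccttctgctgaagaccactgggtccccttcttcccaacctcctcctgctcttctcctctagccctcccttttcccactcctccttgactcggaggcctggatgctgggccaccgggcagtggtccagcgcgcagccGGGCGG
Grin2c: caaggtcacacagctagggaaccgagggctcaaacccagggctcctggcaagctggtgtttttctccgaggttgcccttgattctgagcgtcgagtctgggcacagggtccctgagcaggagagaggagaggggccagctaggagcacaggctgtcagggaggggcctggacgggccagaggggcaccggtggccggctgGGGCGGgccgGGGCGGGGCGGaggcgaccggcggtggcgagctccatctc
Gria4: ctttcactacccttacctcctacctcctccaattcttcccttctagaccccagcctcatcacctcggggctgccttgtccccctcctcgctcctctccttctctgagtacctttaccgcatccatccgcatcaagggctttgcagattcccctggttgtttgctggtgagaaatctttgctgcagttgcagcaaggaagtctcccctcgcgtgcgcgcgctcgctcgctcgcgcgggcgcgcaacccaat
Grik3 had 6 GC boxes in a window with 82.0% G and C, Grin2c had 3, of which 2 share a base, Grm3 had 1 and Gria4 had 0. Over all 32851 windows of this length, 32.7% held a GC box, and so did 13 of the 25 windows that RefSeq gives for 21 of the receptor genes. The cAMP response element TGACGTCA, which reads the same on both strands, was in 0 of those 25 windows and in 1.55% of all windows. E-boxes (CANNTG) were in 12 of the 25 and in 66.2% of all. Matches of letters describe these windows alone. Grin2c held more GC boxes than Grm3, so their number did not divide the 4 genes as their values did.

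The wider glutamate pathway was read from 82 genes in 8 fixed lists, of which 81 were tested. Dlgap2, a scaffold of the postsynaptic density, rose: it had 942, 1026 and 929.8 normalized counts at day 28, against 591, 569 and 602 at day 3 (log2 0.72, SE 0.10, adjusted p = 0.0345). It was the 1 gene of the 81 past the threshold with all 6 libraries, beside 0.192% of all genes, and 0 were lower. The call was lost with voom, without the intensity trend, with the cerebellar covariate and without day 3 replicates 1 and 2, where 0 of the 81 passed. All 3 day 3 libraries were far below all 3 at day 28. At an unadjusted p under 0.05 there were 39 of 81, beside 13.4% of all genes, and the groups did not overlap for 22 higher and 10 lower at day 28, beside 9.71% and 9.21% of all genes. Without day 3 replicate 3, 17 passed (10 higher and 7 lower), beside 3.85% of all genes (2.01% higher and 1.84% lower), and with any 1 of the other libraries except day 3 replicate 1 left out, 0 did. The next smallest p values were those of 3 genes that did not pass. Akap5, an anchor of kinases at AMPA receptors, had 2434, 2197 and 2239.7 at day 28, against 1439.9, 1326 and 1739 at day 3 (adjusted p = 0.0786). Neto1, an auxiliary subunit of kainate receptors, had 2548, 2271 and 2188 at day 28, against 1442, 1333 and 1791 at day 3 (adjusted p = 0.0910). The list named kainate receptor auxiliary held Neto1, Neto2 and Actn2. Actn2 encodes a cytoskeletal protein and is not an auxiliary subunit. All 3 had groups that did not overlap, higher at day 28, with a median difference of 0.63. Srr, which makes the NMDA co-agonist D-serine, had 1468.5, 1555 and 1478 at day 28, against 1142, 1157 and 1145 at day 3 (adjusted p = 0.109).

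Beside the kainate auxiliary median above, list medians of the log2 difference were 0.27 for 15 AMPA receptor trafficking and anchoring genes, 0.19 for 11 partners of metabotropic receptors, 0.19 for 10 NMDA receptor partners, 0.01 for 18 further AMPA receptor auxiliary and assembly factors, -0.01 for 8 synaptic organizers, 0.03 for 3 RNA editing enzymes and -0.12 for 13 genes of glutamate transport and metabolism. Homer3 and Slc1a6 were high in day 3 replicates 1 and 2, as Grm4 was. Homer3, a scaffold of metabotropic receptors abundant in Purkinje cells, had 164, 139 and 248 normalized counts at day 28, and 1089.97, 1360.3 and 214 at day 3. Slc1a6, a glutamate transporter of Purkinje cells, had 64.9, 81.3 and 113 at day 28, and 520.3, 520.3 and 124 at day 3. Slc17a7, the vesicular transporter of forebrain excitatory neurons, had a difference of 0.04 (95% interval -0.17 to 0.24).

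For the 3 of the 30 tested receptor genes with the widest range over the 6 libraries, the most similar genes outside the set were sought by Pearson correlation of log2 values, as a description over 6 libraries that share their tissue make-up. Grm4 was closest to Gm14033, Ifitm3 and Kank2 (r = 0.997, 0.997 and 0.996). Grin2c was closest to Myof, Ppfia4 and Irf7 (r = 0.995, 0.994 and 0.994). Grin2b was closest to Kcnma1, Casc4 and Arap2 (r = 0.998, 0.993 and 0.993). Irf7, an interferon-induced factor, had 10.98, 6.25 and 9.48 normalized counts at day 28, and 196, 52.4 and 8.52 at day 3, so day 3 replicate 1 was highest for it as for Grin2c.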

How the data were processed

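Polyadenylated RNA of 6 brain libraries was sequenced. The deposited log2 values are, from the values themselves, read counts divided by a size factor per library, plus 1: back-transformed values were whole multiples of 1 step for 100% of cells within a tolerance of 0.001 reads. The build was GRCm39 per the submitters' processing notes. The aligner, counter, annotation and scaling tool are not given in the sources used here. Symbols and merged exon lengths came from GENCODE M21, an older build. Exons were merged over all transcripts of a gene, so a length can exceed that of any single transcript. Levels per kilobase are therefore approximate, as are the orders and subunit shares that rest on them.

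On log2(normalized count + 1), limma 3.58.1 (R 4.3.3) was fitted with group as its 1 term, an intensity trend and 4 residual degrees of freedom. It covered the 16162 genes whose normalized counts averaged 10 or more, with two-sided p adjusted by Benjamini-Hochberg at 0.05. A fold change on this scale understates changes of low genes. The fit was tested on simulated data. Within a group, counts of any 2 libraries differed far beyond sampling noise (chi-square over degrees of freedom 8.98 or more), and each was kept as a sample. The members and lists were chosen with earlier results of these data known. Values in every library are given for members whose groups did not overlap, the 6 largest differences and the member with most reads in each class, and likewise for pathway genes past the threshold or among the 4 smallest p. Gria4 and Cnih2 fall outside these rules and, like Homer3, Slc1a6 and Slc17a7, were picked with values in view. Alternatives covered the pseudocount, filter, scaling, variance model, voom, a block on replicate number, a cerebellar covariate and left-out libraries. Figures used matplotlib 3.10.9 and exact tests scipy.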

Additional observations from a re-analysis of the deposited data

How the results depend on the processing

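The number of receptor genes called was 0 with all 6 libraries, where 0.192% of all genes passed. It was 1 with any read as the filter (0.232%), 1 with scaling by total reads (0.198%), 2 with a robust prior (0.458%) and 2 with library weights (0.427%). With 1 library left out it was 0 to 9, beside 0.00619% to 3.85% of all genes, the 9 being without day 3 replicate 3 (3.85%). Without day 3 replicate 3 the number whose groups did not overlap was 23 and without both libraries rich in cerebellar transcripts it was 18, and with 1 library left out it ran from 12 to 23. The pathway count of 1 was 0 without the intensity trend (0.0186% of all genes) and with the cerebellar covariate (0.0124%). It was also 0 with voom and with the replicate block, where 0 of all genes passed. With 1 library left out it was 0 to 17, beside 0.00619% to 3.85% of all genes. The median difference over all receptor genes, 0.22, was 0.108 with the cerebellar covariate and 0.15 to 0.32 with 1 library left out. It was 0.0932 without both libraries rich in cerebellar transcripts. The NMDA median, 0.06, was 0.0986 with upper quartile scaling, 0.0132 with the covariate and 0.0186 to 0.0991 with 1 left out. The auxiliary median, 0.23, was -0.0130 with the covariate and -0.0827 without both libraries. Kainate, delta and metabotropic medians were 0.231, 0.218 and 0.371 with all libraries, and 0.0457, 0.0203 and 0.208 without both. The AMPA median was 0.250 with all libraries and ran from 0.196 to 0.300 over the alternatives. Without both libraries the log2 ratios of Grin2b to Grin2a and of Grin2c to Grin2b were 0.19 and -0.40 (0.24 and -1.32 with all libraries).

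Signs turned for 10 of the 30 differences, none of which passed with all 6 libraries. Cacng7 was 0.00148 with upper quartile scaling and ran from -0.117 to 0.043 with 1 library left out. Grin3a was -0.00289 with library weights, -0.0868 with the covariate, -0.0597 without both libraries and -0.0616 to 0.0737 with 1 left out. Cnih2 was -0.0593, -0.357, -0.561 and -0.222 to 0.289 under the same settings. Cnih3 was -0.15 with the covariate and -0.26 without both libraries. Also without both, Gria4 was 0.20, Grin2c 0.11, Grin2d 0.0316, Grm4 0.163, Grm7 -0.0130 and Cacng3 -0.0619. The causes of these changes were not tested.

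The labels do not say whether same-numbered libraries were paired. Deviations of the pairs correlated at 0.0345, 0.131 and -0.0621 across genes. Day 28 replicates 1 and 2 correlated best with the day 3 library of their own number, and day 28 replicate 3 did not. With so few libraries these values cannot settle whether a pairing exists. With the replicate block 0 receptor genes and 0 of all genes passed with limma, and the Grik3 difference of 0.54 had an adjusted p of 0.105. With 1 library at day 3, or 2, the test has few degrees of freedom, and a missed threshold does not show that values were equal.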
